A study of Arabidopsis thaliana with 8 samples.

Results

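The transcripts described are those of the chloroplast-encoded ndh and gene-expression genes of Arabidopsis thaliana during cold treatment. Chosen were the chloroplast genes named ndh, rpo, rps, rpl, ycf, mat, clp, acc or ccs that have a probe set paired with that gene alone. These are 35 of the 13350 genes named on the array: 10 ndh genes, 4 rpo genes, 15 ribosomal protein genes and 6 others (ycf3, ycf4, matK, clpP, accD and ccsA). Each has 1 probe set of its own. The rule of choice used names and not measured values, but it was set with earlier results of these data known. Another 7 genes of these kinds, rps12, rpl2, rpl23, ycf2, ndhB, rps7 and ycf1, are not analysed here because their probe sets pair with 2 gene entries. Of the 35, 34 were bright enough to be tested, which asked for a signal above the 40th percentile of the array (23.1 to 28 in signal) on at least 2 arrays. On all 8 arrays 31 of them were; rpoB and rps14 fell short on 1 array at 0 h, and rps15 on both arrays at 0 h, so that it passed through the cold arrays alone. The exception is ndhF, a membrane subunit of NDH, whose signals ran from 5.10 to 39.6 over the 8 arrays against a median of 40.9 over all probe sets. As a comparison served 33 chloroplast genes of the photosynthetic complexes.

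Chloroplasts keep a small genome of their own. The NDH complex sits in the thylakoid membrane, resembles respiratory complex I and passes electrons from ferredoxin back to plastoquinone, which feeds cyclic electron flow around photosystem I; its subunits are encoded partly by chloroplast ndh genes and partly by nuclear genes. Chloroplast genes are transcribed by a bacterial-type RNA polymerase whose core is encoded by the chloroplast rpo genes and which needs nuclear sigma factors, and by phage-type polymerases encoded in the nucleus. The transcripts are often polycistronic, are cut, edited and stabilised by nuclear-encoded RNA-binding proteins, and are translated on bacterial-type ribosomes whose proteins come from chloroplast rps and rpl genes and from the nucleus.

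Total RNA came from whole Col-0 plants, biotin-labelled and hybridised to 8 ATH1 arrays, 2 per group. All plants grew on plates with phytagar and Gamborg's B5 salts at 24 °C in constant fluorescent light of 100 µmol m-2 s-1, after the seed had been stratified at 4 °C for 4 days, and were 10 days old at the start. The 0 h plants were taken from these conditions. The others were moved to 4 °C and light of about 25 µmol m-2 s-1 for 1 h, 24 h or 7 days, per their treatment notes, although the sample descriptions list 100 µmol m-2 s-1 for every sample. By the treatment notes the cold groups also differed from 0 h in light, and the 7-day group differed in age; these cannot be told apart, and no plants kept warm for the same times were analysed here. Values are MAS5 signals, brightness on a linear scale with the trimmed mean of each array near 100. A fold change is a difference of mean log2(signal + 8) with its SE. A gene was called, and is said to have risen or fallen, at an adjusted p under 0.05 in a limma fit over all 15017 tested probe sets. Signals are given as replicate 1 and then replicate 2 of each group, and levels are compared between groups and not between genes, since probe sets differ in brightness for reasons other than abundance.

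Some features of the arrays bear on every value below. The 2 arrays at 1 h differed: 32 of the 34 tested genes were brighter on replicate 1, with a median ratio of 1.62, and the mean log2 level of the 34 was 8.82 and 8.15 there, against 7.88 and 7.67 at 0 h, 8.33 and 8.06 at 24 h, and 8.15 and 8.31 at 7 days. The 3' to 5' signal ratio of the actin control probe sets, which reads RNA integrity and labelling, was 3.84 and 2.95 at 0 h, 5.32 and 3.95 at 1 h, 6.53 and 3.44 at 24 h, and 3.83 and 5.91 at 7 days. It was between 1.18 and 1.37 for a second actin set, between 0.71 and 0.92 for GAPDH, and between 1.21 and 1.75 for ubiquitin. Few chloroplast transcripts carry long poly(A) tails, and how cDNA was primed is not given in the sources used here. Markers of leaf and root tissue were present on all arrays. The 3 root genes summed to signals of 2450 and 2259 at 0 h and 1086 and 818 at 7 days, with 1 of them falling at 24 h and at 7 days. A sum gives most weight to bright genes. Averaged on the log2 scale the 3 root genes shifted less, from 7.475 and 7.445 before the cold to 7.053 and 6.954 after 7 days. Against 0 h, their median log2 fold changes were -0.28 (1 h), -0.16 (24 h) and -0.35 (7 days). Of 8 nuclear photosynthesis genes, 2 fell at 24 h and 1 at 7 days, and of 6 tested mitochondria-encoded genes 0 were called against 0 h in limma. The median log2 fold change of these 6 was 0.26 at 1 h, 0.27 at 24 h and 0.10 at 7 days. Over all probe sets it was -0.01, -0.06 and -0.05. The mean log2 level of the 6 was 5.18 and 5.32 at 0 h and 5.78 and 5.39 at 1 h. At 24 h it was 5.53 and 5.57, and at 7 days 5.54 and 4.85. In whole plants, more chloroplast-rich cells and more chloroplast RNA per cell cannot be told apart, and the part of these measures in the results was not tested.

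After 1 h at 4 °C the chloroplast genes stood above 0 h as a body, but 0 of the 34 were called, where 0.32% of all tested probe sets were and 0.313% rose. The median log2 fold change was 0.97 for the 9 tested ndh genes, 0.80 for the 4 rpo genes and 0.57 for the 15 ribosomal protein genes, against -0.01 over all probe sets and 0.66 over the photosynthetic complex genes. In 23 of the 34 (67.6%) both 1 h arrays lay above both 0 h arrays, which held for 16% of all probe sets. At an unadjusted p under 0.05, 17 of the 34 (50%) were higher and 0 lower, where 3.23% of all probe sets were higher and 1.33% lower. The arrays at 1 h carried this unequally: without 1 h replicate 1 the medians were 0.46 for ndh, 0.27 for rpo and 0.31 for ribosomal protein genes, and without 1 h replicate 2 they were 1.52, 1.16 and 0.85. The photosynthetic complex genes were also above 0 h, 33 of 33 in sign.

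At 24 h, 9 of the 34 genes had risen and 0 had fallen. The 26.5% called is close to the 27.1% of all probe sets called in either direction, while 11.8% of all probe sets rose. The median log2 fold change was 0.73 for ndh, 0.96 for rpo and 0.09 for ribosomal protein genes, beside -0.06 over all probe sets and 0.59 over the photosynthetic complex genes. The 24 h arrays lay above both 0 h arrays in 21 of the 34 (61.8%; 27.4% of all probe sets) and below them in 3 (33.9% of all). These calls rest on few arrays: 0 of the 34 were called without 0 h replicate 1, 3 if 24 h replicate 2 was left out, 5 if 24 h replicate 1 was, and 3 with no filter on dim probe sets. Leaving out 0 h replicate 2 gave 6 that rose and 2 that fell, rpl36 and ycf4. Without 0 h replicate 1 the median for ribosomal protein genes was 0.58, and without 0 h replicate 2 it was -0.17.

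At 7 days the medians of the classes lay apart. The rpo genes had a median log2 fold change of 1.25, ribosomal protein genes 0.48 and ndh genes 0.09, with -0.05 over all probe sets and 0.15 over the photosynthetic complex genes. Of the 34, 7 had risen and 0 had fallen: 3 of 4 rpo genes, 2 of 15 ribosomal protein genes, clpP and ccsA, and 0 of 9 ndh genes, of which 2 were higher at an unadjusted p under 0.05 (15.1% of all probe sets). The 20.6% called is close to the 19.9% of all probe sets called in either direction, while 9.18% of all probe sets rose and 10.7% fell. In 15 of the 34 (44.1%) the 7-day arrays lay above both 0 h arrays, where 26.9% of all probe sets did. Without 0 h replicate 1 or without 7 days replicate 1, 3 of the 34 were called, and 2 with no filter on dim probe sets. Of the 7 calls, rps2 and rpoC2 were kept without 0 h replicate 1, and rpoC2 alone without 7 days replicate 1. The absence of falls also depended on the setting: without 7 days replicate 2, 4 genes rose and 3 fell (ndhC, rpl32 and rpl33), and with quantile normalization 6 rose and 1 fell (rpl32). The ndh median at 7 days ran from -0.21 without 7 days replicate 2 to 0.41 without 0 h replicate 1.

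**Figure D1:**
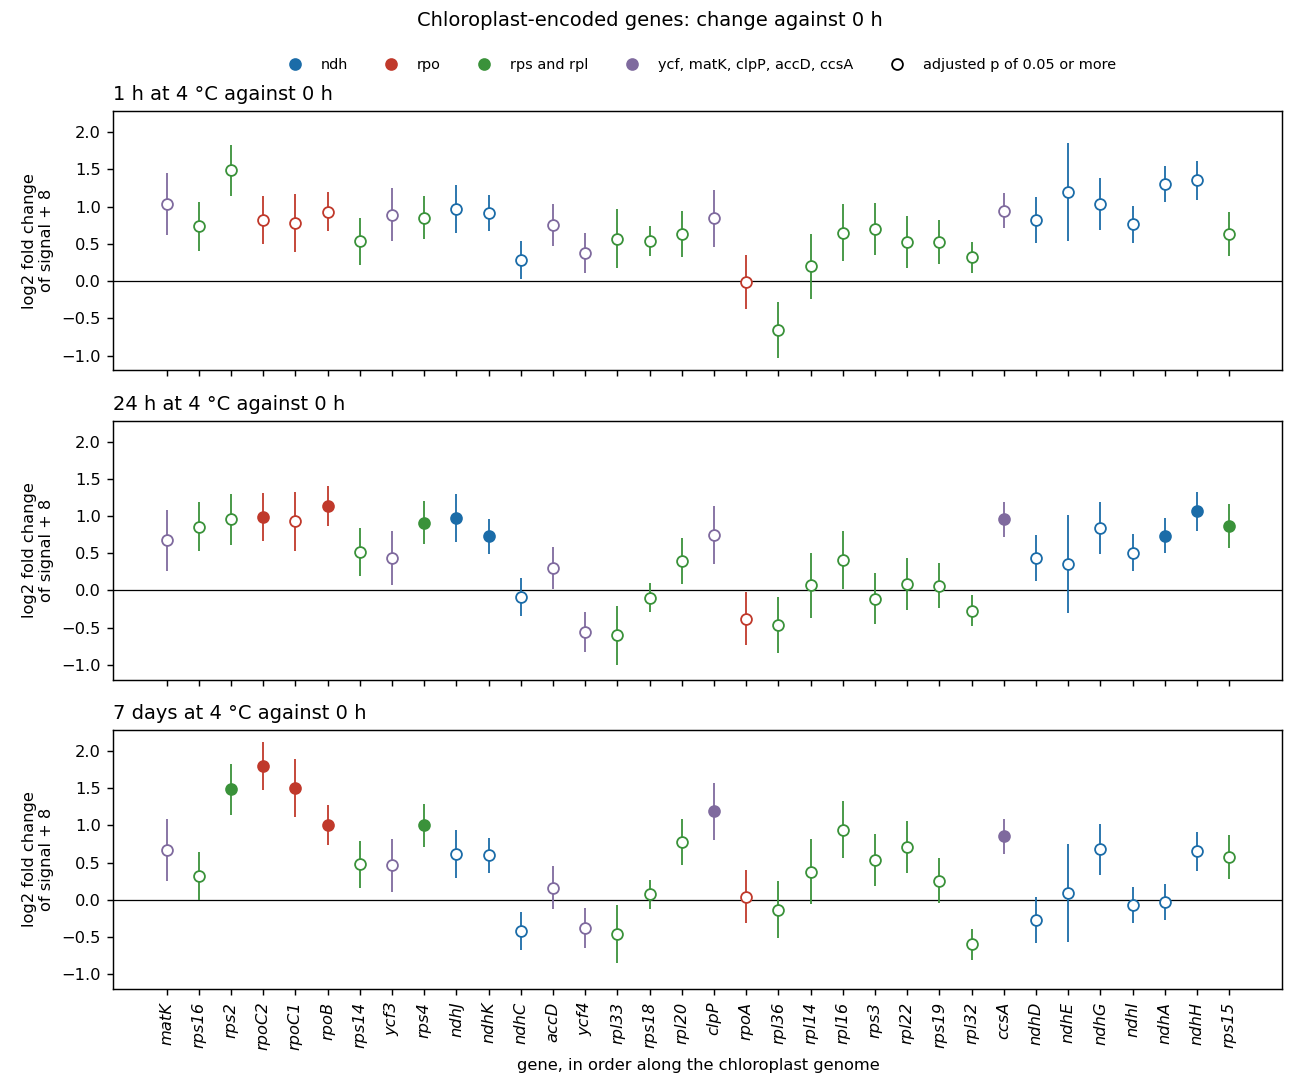
Log2 fold change of signal + 8 against 0 h (points, bars ± SE) for the 34 tested genes in their order along the chloroplast genome, at 1 h (top), 24 h (middle) and 7 days (bottom), coloured by class and filled where the adjusted p was under 0.05. Nearly all genes lie above 0 at 1 h with 0 filled, 9 are filled at 24 h and 7 at 7 days, where rps2, rpoC2, rpoC1 and rpoB form a run between 1.01 and 1.80.

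**Figure D2:**
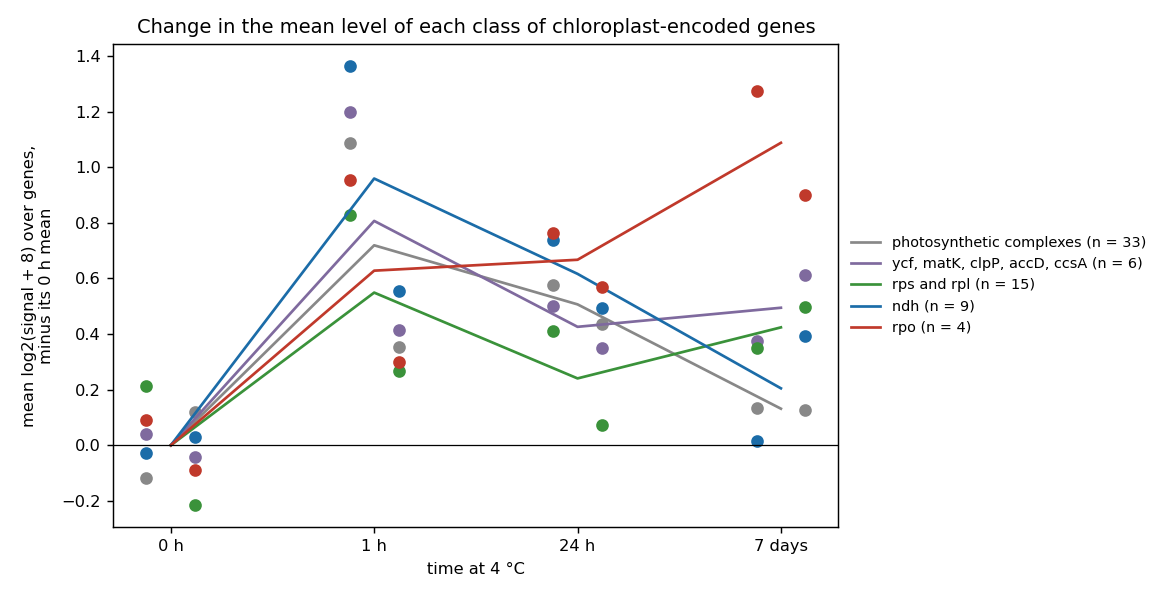
Mean log2(signal + 8) over the genes of each class minus that class's mean at 0 h, on every array (points, replicate 1 left and 2 right) with the group means joined by lines. All classes are higher at 1 h, where the arrays lie far apart, and at 7 days the rpo genes are highest and the ndh and photosynthetic complex genes are nearest to 0 h.

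The ndh genes encode membrane and connecting subunits of the NDH complex. At 24 h the largest fold change and the smallest p among them belonged to ndhH, which encodes a subunit of the arm that extends from the membrane. Its signals were 29.0 and 43.9 at 0 h, 137 and 78.9 at 1 h, 83.9 and 83.2 at 24 h, and 62.0 and 59.9 at 7 days. All 6 cold arrays lay above both 0 h arrays, with the 1 h arrays apart from each other and the 24 h pair close together. The log2 fold change was 1.35 ± 0.26 at 1 h (limma adjusted p = 0.0668), 1.06 ± 0.26 at 24 h (adjusted p = 0.0112) and 0.65 ± 0.26 at 7 days (adjusted p = 0.102), so only 24 h passed. That call was lost only without 0 h replicate 1, of 16 alternatives.

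The gene ndhA, for a membrane subunit, gave signals of 417 and 467 at 0 h, 1278 and 954 at 1 h, 815 and 675 at 24 h, and 341 and 545 at 7 days. The 1 h and 24 h arrays were all above 0 h, while the 7-day arrays fell on either side of the 0 h pair. Its log2 fold change was 1.31 ± 0.24 at 1 h (limma adjusted p = 0.0501), 0.74 ± 0.24 at 24 h (adjusted p = 0.0403) and -0.03 ± 0.24 at 7 days (adjusted p = 0.943). At 1 h it was the ndh gene nearest to the threshold, and it passed there without either 7-day array, with quantile normalization and with a pseudocount of 32. From 24 h to 7 days its difference was -0.77 ± 0.24 (limma adjusted p = 0.0684), which did not pass. The call of ndhA at 24 h was lost in 6 of 16 alternatives.

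Lying next to each other, ndhJ, ndhK and ndhC encode 2 subunits of the connecting arm and 1 of the membrane arm. For ndhJ the signals were 70.0 and 90.3 at 0 h, 245 and 109 at 1 h, 198 and 135 at 24 h, and 139.8 and 113 at 7 days. For ndhK they were 53.8 and 72.2 at 0 h, 149 and 104 at 1 h, 91.0 and 129 at 24 h, and 101 and 96.0 at 7 days. In both genes all 6 cold arrays lay above the 0 h arrays, and both rose at 24 h, ndhJ by 0.97 ± 0.32 (limma adjusted p = 0.0435) and ndhK by 0.73 ± 0.24 (adjusted p = 0.0427). The ndhJ call was lost in 8 of 16 alternatives and the ndhK call in 7 of 16. Their neighbour ndhC was at 1594 and 1369 at 0 h, 1779 and 1821 at 1 h, 1515 and 1269 at 24 h, and 822 and 1495 at 7 days. It had the lowest fold change of the ndh genes at each time, 0.28 ± 0.26 at 1 h, -0.09 ± 0.26 at 24 h and -0.41 ± 0.26 at 7 days (limma adjusted p of 1, 0.824 and 0.289), and its arrays overlapped those of 0 h at 24 h and 7 days. Without 7 days replicate 2 it was called lower at 7 days.

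The remaining ndh genes did not pass at 1 h, 24 h or 7 days against 0 h, though ndhI passed the F test over the 3 times (limma adjusted p = 0.0476). Together with ndhA and ndhH, the genes ndhD, ndhE, ndhG and ndhI form a cluster that is interrupted by psaC, and the log2 fold changes of these 6 ran from 0.76 to 1.35 at 1 h, from 0.36 to 1.06 at 24 h and from -0.28 to 0.68 at 7 days. The highest at 7 days was ndhG, a membrane subunit, at signals of 48.8 and 60.9 at 0 h, 184 and 77.1 at 1 h, 137 and 78.4 at 24 h, and 83.3 and 102 at 7 days. All its cold arrays lay above 0 h, with a log2 fold change of 0.68 ± 0.35 at 7 days (limma adjusted p = 0.198). Between 24 h and 7 days all 9 ndh genes had a lower mean, with a median log2 difference of -0.36 and a range of -0.77 to -0.13, yet 0 were called there and 3 (ndhA, ndhD and ndhI) were lower at an unadjusted p under 0.05, where 12% of all probe sets were. The decline was not particular to ndh genes. Of the photosynthetic complex genes 28 of 33 were also lower, with a median of -0.33, against -0.01 over all probe sets.

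Among the rpo genes, rpoB, rpoC1 and rpoC2 encode the catalytic subunits of the chloroplast polymerase and follow one another on the genome, while rpoA, for the subunit that assembles the core, lies elsewhere among ribosomal protein genes. The signals of rpoC2 were 68.1 and 57.7 at 0 h, 147 and 92.2 at 1 h, 108 and 161 at 24 h, and 340.1 and 166 at 7 days. Every cold array was above both 0 h arrays, and both 7-day arrays were above all others. The gene rose at 24 h by 0.99 ± 0.32 (limma adjusted p = 0.0411) and at 7 days by 1.80 ± 0.32 (adjusted p = 0.00284). The 7-day call held in all 16 alternatives, with adjusted p from 0.0018 to 0.0261, while that at 24 h was lost in 6 of 16.

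Signals of rpoC1 were 151 and 157 at 0 h, 453 and 159 at 1 h, 335 and 269 at 24 h, and 600.1 and 338 at 7 days. The second 1 h array was at the level of 0 h, and the 24 h and 7-day arrays were all above it. This gene rose at 7 days, by 1.50 ± 0.39 (limma adjusted p = 0.0191), and was at 0.93 ± 0.39 at 24 h (adjusted p = 0.101). For rpoB the signals were 18.4 and 32.02 at 0 h, 65.8 and 44.0 at 1 h, 65.9 and 60.9 at 24 h, and 59.6 and 55.0 at 7 days. They were dim, with 0 h values under the array median, and the 6 cold arrays were all higher than 0 h. It rose by 1.13 ± 0.26 at 24 h (limma adjusted p = 0.00814) and by 1.01 ± 0.26 at 7 days (adjusted p = 0.0198).

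The fourth, rpoA, did not share this course. Its signals were 913 and 400.5 at 0 h, 603 and 598 at 1 h, 638 and 337 at 24 h, and 541 and 721 at 7 days. The 0 h arrays spanned all the others except 24 h replicate 2, and the log2 fold change was -0.01 ± 0.36 at 1 h, -0.38 ± 0.36 at 24 h and 0.04 ± 0.36 at 7 days (limma adjusted p of 1, 0.474 and 0.947). It lies in a run of 7 measured genes from rpoA to rps19, all others of which encode ribosomal proteins, and 0 of the 7 were called in any comparison. Against 0 h, 27.1% of all probe sets were called at 24 h and 19.9% at 7 days. In that run 0 h replicate 1 was brighter than replicate 2 in 7 of 7 genes, with ratios from 1.08 to 2.78 and a median of 2.01, against 14 of the 27 other tested genes and a median ratio of 1.07. Among the other genes the ratio went both ways, from 0.43 to 3.86.

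Set side by side on each array, the mean log2 level of the 4 rpo genes minus that of the 9 ndh genes was -0.57 and -0.81 at 0 h, -1.10 and -0.95 at 1 h, -0.67 and -0.62 at 24 h, and 0.57 and -0.19 at 7 days. Only the shift between arrays can be read from this, since the offset depends on the probes. Both 7-day arrays lay above all others, replicate 1 further than replicate 2.

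**Figure D3:**
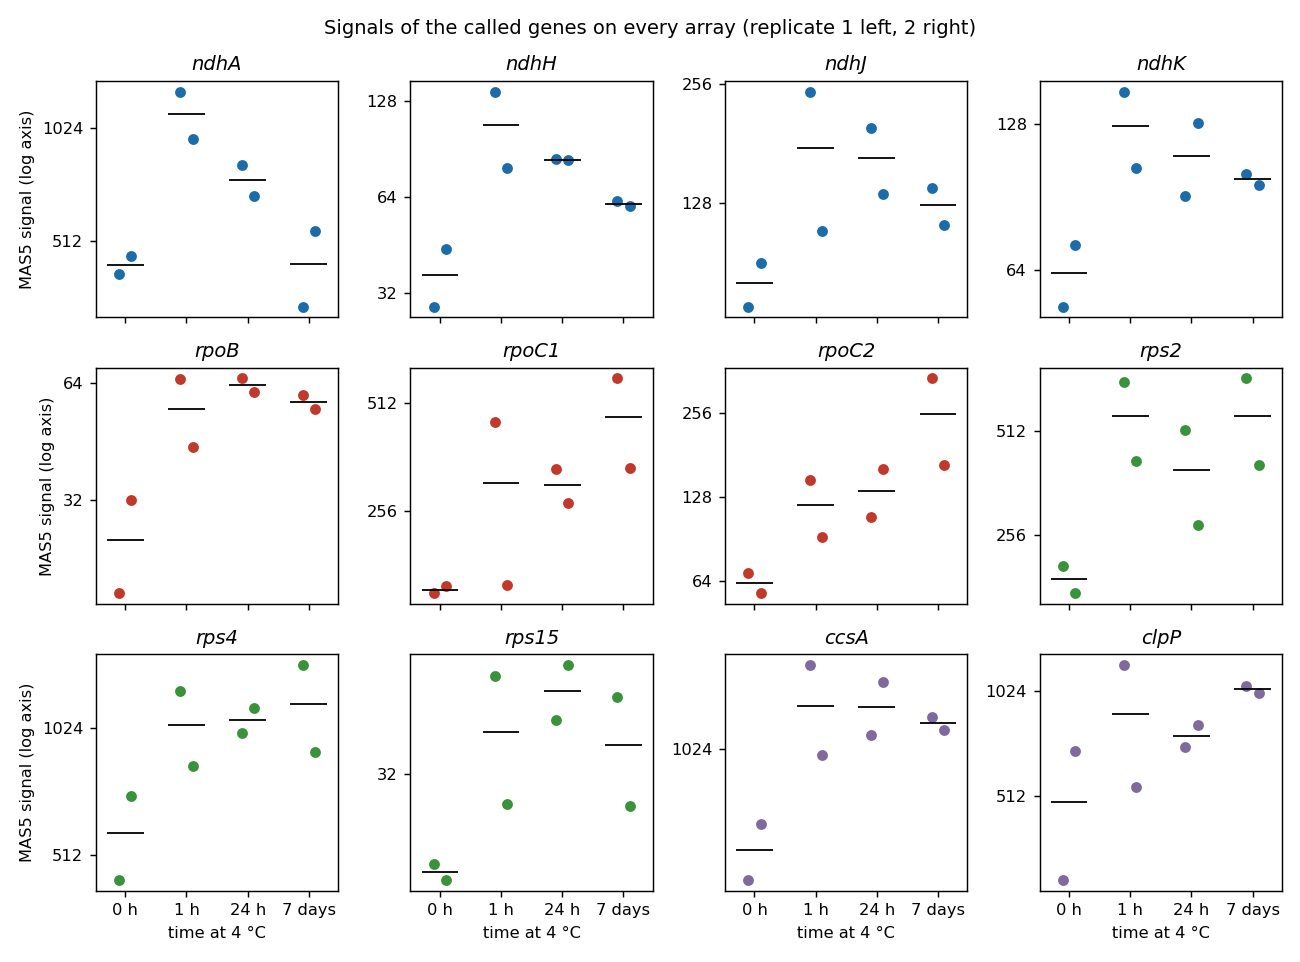
MAS5 signal on a log axis for the 12 genes called against 0 h at 24 h or 7 days, on every array (points, replicate 1 left and replicate 2 right of each time) with the group mean as a line; the axes differ between genes. For ndhA the 7-day arrays lie on either side of the 0 h level, whereas for rpoC2 both 7-day arrays exceed all others.

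The 15 ribosomal protein genes supply parts of the small (rps) and large (rpl) subunits of the chloroplast ribosome. Of these, 3 rose against 0 h (rps2, rps4 and rps15) and 2 fell from 1 h to 24 h (rpl33 and rps18). At 24 h and at 7 days 13.3% of the class rose, near the 11.8% and 9.18% of all probe sets, and 13.3% fell from 1 h to 24 h, near the 14.7% of all. The neighbour of rpoC2, rps2, had signals of 207 and 173 at 0 h, 708 and 419 at 1 h, 515 and 273 at 24 h, and 726 and 407 at 7 days. All cold arrays were above 0 h. Its log2 fold change was the highest of the class at each time, 1.49 ± 0.34 at 1 h (limma adjusted p = 0.166), 0.96 ± 0.34 at 24 h (adjusted p = 0.0572) and 1.48 ± 0.34 at 7 days (adjusted p = 0.0108), and it passed at 7 days. The 4 adjacent genes rps2, rpoC2, rpoC1 and rpoB had all risen at 7 days, with log2 fold changes of 1.01 to 1.80. The next gene beyond rps2, atpI, for a subunit of the ATP synthase, had risen at 24 h by 0.95 ± 0.30 (limma adjusted p = 0.0327) and was at 0.55 ± 0.30 at 7 days (adjusted p = 0.219). On the other side, petN, a photosynthetic complex gene, is the measured gene next to rpoB. It had risen at 24 h by 0.72 ± 0.24 (limma adjusted p = 0.0425) and was at 0.06 ± 0.24 at 7 days (adjusted p = 0.898).

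For rps4 the signals were 447 and 707 at 0 h, 1249.6 and 831 at 1 h, 996 and 1141 at 24 h, and 1440.1 and 895 at 7 days. Its cold arrays were all above both 0 h arrays, and it rose by 0.91 ± 0.29 at 24 h (limma adjusted p = 0.0346) and by 1.00 ± 0.29 at 7 days (adjusted p = 0.0292). The signals of rps15 were 21.9 and 20.4 at 0 h, 48.4 and 28.2 at 1 h, 40.2 and 50.8 at 24 h, and 44.3 and 28.0 at 7 days. They were dim but did not overlap between 0 h and any cold time, and the gene rose at 24 h by 0.87 ± 0.30 (limma adjusted p = 0.0478), a call lost in 9 of 16 alternatives. Since it was tested on the strength of its cold arrays, a difference from 0 h was part of its selection.

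The genes rpl33, rps18, rpl32, rpl36 and rps3 had lower mean log2 levels at 24 h than at 0 h. With all 8 arrays on the deposited scale they were not called against 0 h. At 1 h, rpl33, rps18, rpl32 and rps3 lay above both 0 h arrays. For rpl33 the signals were 1175 and 1231 at 0 h, 1823 and 1758 at 1 h, 984 and 634 at 24 h, and 498 and 1527 at 7 days. Its arrays at 24 h lay below those at 0 h and at 1 h, while the 7-day pair was split widely. It had the lowest fold change of the class at 24 h, -0.60 ± 0.39 (limma adjusted p = 0.29), and fell from 1 h to 24 h by 1.17 ± 0.39 on the log2 scale (adjusted p = 0.0471). The call of that fall was lost in 7 of 16 alternatives. For rps18 the signals were 343 and 309 at 0 h, 511 and 443 at 1 h, 267 and 345 at 24 h, and 315 and 374 at 7 days. It fell from 1 h to 24 h by 0.63 ± 0.20 on the log2 scale (limma adjusted p = 0.0326), and its 24 h arrays overlapped those at 0 h. The rps18 call was lost in 5 of 16 alternatives. The signals of rpl32 were 1238 and 1142 at 0 h, 1545 and 1429.8 at 1 h, 1016 and 955 at 24 h, and 642 and 954 at 7 days. Both 24 h arrays and both 7-day arrays were below 0 h, and at -0.60 ± 0.21 at 7 days (limma adjusted p = 0.064) it was the lowest of the class without passing. It passed as a fall with quantile normalization and without 7 days replicate 2. The lowest at 1 h was rpl36, at 545 and 196 at 0 h, 194 and 215 at 1 h, 303 and 182 at 24 h, and 331 and 269 at 7 days. Its first 0 h array stood above every other array, and its fold change at 1 h was -0.66 ± 0.38 (adjusted p = 1).

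The 8 ribosomal protein genes not yet given values did not pass in any comparison. Their log2 fold changes at 7 days were 0.26 for rps19, 0.32 for rps16, 0.38 for rpl14, 0.48 for rps14, 0.54 for rps3, 0.71 for rpl22, 0.78 for rpl20 and 0.94 for rpl16. The largest of these, rpl16, had an adjusted p of 0.108 in limma. At 24 h the 8 ran from -0.11 for rps3 to 0.86 for rps16 (limma adjusted p = 0.0723), so rps16 stood lower at 7 days than at 24 h.

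Of the 6 other genes, ccsA, for a factor that attaches haem to c-type cytochromes, rose at both later times. Its signals were 555 and 721 at 0 h, 1509 and 992 at 1 h, 1091 and 1394 at 24 h, and 1187 and 1116 at 7 days. Every cold array lay above the 0 h arrays, and the fold change was 0.94 ± 0.24 at 1 h (limma adjusted p = 0.232), 0.95 ± 0.24 at 24 h (adjusted p = 0.0111) and 0.85 ± 0.24 at 7 days (adjusted p = 0.0245). For clpP, the proteolytic subunit of the Clp protease, the signals were 293 and 685 at 0 h, 1212 and 542 at 1 h, 706 and 814 at 24 h, and 1059 and 1010.0 at 7 days. The 0 h arrays were far apart, the 7-day arrays close together and above them, and the rise at 7 days of 1.19 ± 0.39 (limma adjusted p = 0.0491) was lost in 10 of 16 alternatives.

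The gene for an intron splicing factor, matK, had signals of 533 and 408 at 0 h, 1438 and 643 at 1 h, 892 and 626 at 24 h, and 479 and 1162 at 7 days. It had the highest fold change of these 6 at 1 h, 1.03 ± 0.41 (limma adjusted p = 0.9), and did not pass at any time. For ycf4, which helps assemble photosystem I, the signals were 1251 and 686 at 0 h, 1255 and 1166 at 1 h, 602 and 656 at 24 h, and 594 and 848 at 7 days. It fell from 1 h to 24 h by 0.94 ± 0.27 on the log2 scale (limma adjusted p = 0.0234), and against 0 h it had the lowest fold change of these genes at each time, 0.38 ± 0.27 at 1 h, -0.55 ± 0.27 at 24 h and -0.38 ± 0.27 at 7 days (adjusted p of 1, 0.15 and 0.354). The ycf4 call from 1 h to 24 h was lost in 6 of 16 alternatives. The other two, accD, for a subunit of acetyl-CoA carboxylase, and ycf3, also for photosystem I assembly, were at 0.30 and 0.44 at 24 h and at 0.17 and 0.47 at 7 days, and did not pass.

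Between cold times, ycf4, rpl33 and rps18 were the 3 genes called from 1 h to 24 h, all lower, where 26% of all probe sets were called and 14.7% fell. That count depended on the arrays and the scaling: it was 0 without 1 h replicate 1 and 0 with each array scaled to the same median, 1 without either 24 h array, 5 without either 7-day array, and without 1 h replicate 2 none of the 3 was called. From 24 h to 7 days 0 were called in limma, where 9.3% of all probe sets were, with 4 at an unadjusted p under 0.05 (25.2% of all), rpoC2 higher and 3 ndh genes lower; without 7 days replicate 2, ndhA and rpoC2 were called. Asked as a difference from 0 h at any time, an F test in limma called 10 of the 34 against 33.2% of all probe sets: ndhA, ndhH, ndhI, ndhK, rpoB, rpoC2, rps2, rps4, rpl32 and ccsA. This count was 6 if 0 h replicate 1 was left out, and 19 if 1 h replicate 2 was.

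Because chloroplast transcripts shifted together between arrays, the levels were also taken relative to the median of the 68 tested chloroplast genes on each array. On this scale 1 of the 34 was called, rpoC2 at 7 days, higher by 1.50 ± 0.44 (limma adjusted p = 0.0183), where 5.72% of all probe sets were called and 0.806% were higher. Its neighbours rpoC1 at 1.20 ± 0.43 (adjusted p = 0.076) and rps2 at 1.19 ± 0.43 (adjusted p = 0.0801) did not pass, and 0 were called at 1 h (0.0466% of all), at 24 h (14.7%), from 1 h to 24 h (8.72%) or from 24 h to 7 days (1.41%). Subtracting the chloroplast median shifted every probe set. Against 0 h the median over all probe sets became -0.74 at 1 h, -0.50 at 24 h and -0.35 at 7 days. The shares over all probe sets include this shift, and the 34 genes are part of the centre. On this scale those shares are therefore no plain background for the 34. Prior degrees of freedom were infinite in this fit, so each SE follows a spread shared between probe sets and not the gene's own. The median SE over all tested probe sets was 0.45, against 0.236 on the deposited scale. Fitting only the 4 arrays compared also called rpoC1, rps2 and clpP as higher and rpl32 as lower at 7 days. The rpoC2 call was lost on leaving out any 1 of the 0 h, 24 h or 7-day arrays, with adjusted p up to 0.579 without 7 days replicate 1.

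Nuclear genes for the same complexes and processes were set beside the chloroplast genes where they had a probe set of their own. Of 17 listed nuclear NDH subunit genes 3 were measured, and all 3 fell at 24 h. NdhN, a subunit of the connecting arm, was at 407 and 493 at 0 h, 372 and 408 at 1 h, 190.0 and 234 at 24 h, and 186 and 148 at 7 days. Every 24 h and 7-day array lay below every earlier array. It fell by 1.06 ± 0.20 on the log2 scale at 24 h (limma adjusted p = 0.00248) and by 1.39 ± 0.20 at 7 days (adjusted p = 0.000851). NdhS, for the subunit at which ferredoxin binds, was at 507 and 406 at 0 h, 400.2 and 376 at 1 h, 223 and 250.4 at 24 h, and 326 and 263 at 7 days, with the later arrays again all below the earlier ones. It fell by 0.92 ± 0.19 at 24 h (limma adjusted p = 0.00469) and by 0.62 ± 0.19 at 7 days (adjusted p = 0.0425). NdhL, a membrane subunit, was at 451 and 560.0 at 0 h, 554 and 460.1 at 1 h, 257 and 338 at 24 h, and 396 and 290.3 at 7 days. It fell at 24 h by 0.76 ± 0.22 (limma adjusted p = 0.0256); at 7 days it was at -0.56 ± 0.22 (adjusted p = 0.0991). At 24 h 4 of 9 tested chloroplast ndh genes had risen and 0 had fallen, and 15.3% of all probe sets fell. The difference between the nuclear and the chloroplast genes was not tested.

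**Figure D4:**
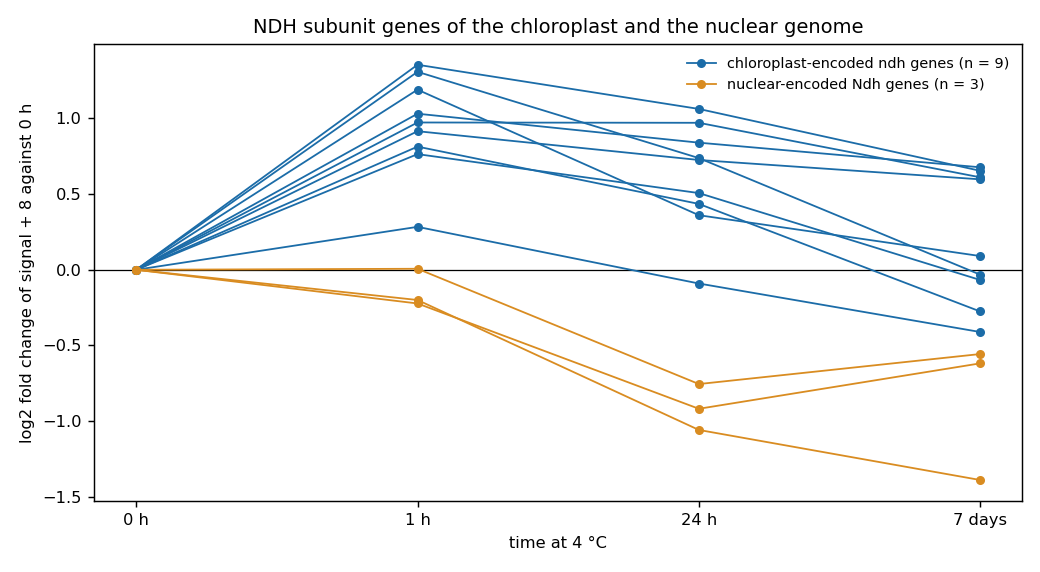
Log2 fold change of signal + 8 against 0 h for the 9 tested chloroplast-encoded ndh genes (blue) and the 3 measured nuclear-encoded NDH subunit genes (orange), with each line a gene and 0 h set to 0. At 24 h the chloroplast genes lie between -0.09 and 1.06 and the nuclear genes between -1.06 and -0.76.

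Of 9 listed factors for NDH assembly and ndh transcript maturation, 3 were measured (CRR21, CRR22 and CRR28, RNA-editing factors of ndh transcripts), and 0 were called in any comparison. Against 0 h, 27.1% of all probe sets were called at 24 h and 19.9% at 7 days. CRR22 and CRR28 were dim, with signals from 9.63 to 30.9 and from 14.6 to 43.7. Their fold changes had SE of 0.38 and 0.37. Of 8 sigma factors and phage-type polymerases, 1 was measured, the locus AT5G15700, to which the gene table gives no name and which was placed on that list from background knowledge. Its signals were 12.0 and 5.87 at 0 h, 3.65 and 6.87 at 1 h, 67.2 and 45.9 at 24 h, and 10.1 and 16.8 at 7 days. Only the 24 h arrays exceeded the filter, so the locus was tested on the strength of these arrays and a difference at 24 h was part of its selection. It rose by 1.94 ± 0.38 at 24 h (limma adjusted p = 0.00298) and was at 0.35 ± 0.38 at 7 days (adjusted p = 0.565). Of 13 listed proteins that associate with the chloroplast-encoded polymerase 0 had a probe set paired with them alone.

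Of 31 listed nuclear genes for plastid ribosomal proteins 6 were measured, and against 0 h 1 of them was called, AT5G47190, which rose by 0.54 ± 0.17 at 7 days (limma adjusted p = 0.0464). Its signals were 729.7 and 789 at 0 h, 788 and 767 at 1 h, 686 and 769 at 24 h, and 1115 and 1097 at 7 days, with both 7-day arrays above all others. The 1 call among the 6 stands beside 19.9% of all probe sets called at 7 days and 9.18% that rose. The median of the 6 was 0.01 at 1 h, -0.39 at 24 h and 0.09 at 7 days. Of 12 listed chloroplast RNA-binding proteins, helicases and nucleases 4 were measured, of which 1 rose at 24 h and 3 at 7 days, where 11.8% and 9.18% of all probe sets rose. RH39, a DEAD-box RNA helicase that acts on chloroplast ribosomal RNA, was at 94.3 and 99.0 at 0 h, 79.5 and 103 at 1 h, 167 and 254 at 24 h, and 219 and 250.2 at 7 days. All its later arrays lay above those at 0 h and 1 h, and it rose by 1.03 ± 0.23 at 24 h (limma adjusted p = 0.00598) and 1.21 ± 0.23 at 7 days (adjusted p = 0.00359). On the same list, AT3G06980 rose at 7 days by 0.88 ± 0.24 (adjusted p = 0.0232) and AT2G37220 by 0.59 ± 0.19 (adjusted p = 0.0496) in limma.

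Among the chloroplast photosynthetic complex genes, 6 of 33 rose at 24 h (18.2%, against 11.8% of all probe sets) and 1 at 7 days (3.03%, against 9.18%), and 0 fell. The 1 at 7 days was rbcL, for the large subunit of Rubisco, at 87.4 and 135 at 0 h, 647 and 214 at 1 h, 423 and 714 at 24 h, and 748 and 609 at 7 days. All its cold arrays were above 0 h, and it rose by 2.26 ± 0.42 at 24 h (limma adjusted p = 0.00224) and 2.55 ± 0.42 at 7 days (adjusted p = 0.00174), further than any of the 34 ndh and gene-expression genes.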

How the data were processed

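RNA of 8 whole-plant samples was measured on ATH1 arrays. The authors deposited linear signal intensities made with MAS5, per the submitters' processing notes; the sources used here give no version, settings or detection calls. Leaving out the lowest and highest 2% of values, each array's mean lay near 100, and no further normalization was applied. Genes were named from the platform's probe annotation and RefSeq's table of genes (assembly TAIR10.1), used only for names and for the order of genes.

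From the deposited intensities, log2(signal + 8) was computed and tested with limma 3.58.1 in R 4.3.3. Tested were 15017 of 22810 probe sets, those above the 40th percentile of their array on at least 2 arrays, without the 64 control probe sets. One mean per group was fitted over all 8 arrays (4 residual degrees of freedom, prior 7.67, intensity trend), and 5 two-sided contrasts were adjusted by Benjamini-Hochberg over all tested probe sets. The fit was tested on simulated data. For relative levels, the median log2 value of the 68 tested chloroplast genes was subtracted from each array. In that fit the prior degrees of freedom were infinite, and the median SE over all tested probe sets rose from 0.236 to 0.45. Precision is limited by the number of arrays. The labels do not say whether a group's arrays stem from separate cultures; p-values therefore cover the spread between these samples alone, and that may be technical.

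Replicate numbers are shared by all groups. Same-numbered deviations from the group means correlated at 0.243 to 0.403 among 0 h, 1 h and 24 h. Between these groups and 7 days the correlations were -0.209 to -0.026. The samples share only a number, so the main fit is unpaired, and a replicate block was run as an alternative. The genes and the lists of nuclear genes were chosen with earlier results of these data known, and the lists come from background knowledge. Named with values are those of the 34 tested genes called in any contrast, and the highest and lowest of each class in each contrast against 0 h. Of the nuclear lists, up to 4 called genes per list and contrast against 0 h are named, and calls between cold times are not given. Also named are rbcL, atpI and petN, of which atpI and petN were added after their values were seen. Alternatives covered normalization, pseudocount, filter, intensity trend, arrays in the fit, the replicate block and leaving out each array. Figures were drawn with matplotlib 3.10.9.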

Additional observations from a re-analysis of the deposited data

How the results depend on the processing

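Of the 20 single calls named, 0 reversed under any alternative run. Over 322 pairs of a call and an alternative, 224 were kept and 98 lost. The rise of rpoC2 at 7 days was kept in 16 of 16, and those of rpoB and ndhH at 24 h in 15 of 16. Leaving out each array in turn, the number called ran from 0 to 1 at 1 h, 0 to 13 at 24 h, 3 to 9 at 7 days, 0 to 5 from 1 h to 24 h, 0 to 2 from 24 h to 7 days and 6 to 19 at any time. The medians at 1 h ran from 0.46 to 1.52 for ndh, 0.27 to 1.16 for rpo and 0.31 to 0.85 for ribosomal protein genes. At 24 h they ran from 0.58 to 0.87, 0.87 to 0.96 and -0.17 to 0.58, and at 7 days from -0.21 to 0.41, 1.02 to 1.48 and 0.14 to 0.66. Relative to the chloroplast median the ranges were 0 to 5 called at 1 h, 0 to 4 at 24 h, 0 to 5 at 7 days, 0 to 2 from 1 h to 24 h and 0 to 1 from 24 h to 7 days.

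Quantile normalization gave 1 call at 1 h, 5 from 1 h to 24 h, 1 from 24 h to 7 days, and 1 relative call at 24 h. Equal array medians gave 0 from 1 h to 24 h. A pseudocount of 32 gave 1 at 1 h and 0 relative calls at 7 days. With no filter, 3 were called at 24 h, 2 at 7 days, 1 from 1 h to 24 h and 5 at any time; more probe sets were then tested. Without the intensity trend, 4 were called at 24 h and 1 from 1 h to 24 h. Fitting only the 4 arrays compared gave 5 from 1 h to 24 h, and 3, 5 and 1 relative calls at 24 h, at 7 days and from 24 h to 7 days. The cause of these changes was not tested.

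With the replicate block, 1 gene was called at 1 h, and relative to the chloroplast median 1 at 1 h, 2 at 24 h, 4 at 7 days and 1 from 1 h to 24 h; the samples share only a number. Added after seeing the data, a centre on the photosynthetic complex genes gave 3, 6 and 8 relative calls at 1 h, 24 h and 7 days, 1 from 1 h to 24 h and 7 from 24 h to 7 days, and a fit over the chloroplast genes alone moved no count. No gene has a second probe set of its own, so that alternative was not run. Dim genes such as rpoB, rps15 and ndhF lie near or under the median signal of 40.9, where the pseudocount understates fold changes.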
